A study of Mus musculus with 16 samples.

Results

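The 6 genes described here mark the endothelium of veins and venules and were followed through 4 stages of tumour disease in the mouse lung. They were taken by symbol from the 17715 entries of the deposited expression table, and all 6 of 6 were found: Nr2f2, Ephb4, Vwf, Darc (the table's symbol for Ackr1), Slc6a2 and Bst1. Endothelial cells had been sorted by flow cytometry from the lungs of C57BL/6N females. The d0 libraries came from wild-type mice, which stand for the stage without tumour. The d15 libraries came from mice bearing a primary tumour grown from Lewis lung carcinoma cells, a mouse lung cancer line, placed under the skin. Mice after resection of that tumour gave the d22 libraries, and mice with metastases gave the d36 libraries. Each time point had 4 libraries, described in the series design as independent biological replicates, and they are numbered here as in their titles. The sources used here give neither the antibodies and gates of the sort nor the age of the mice.

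Venous endothelial identity is held by the nuclear receptor that Nr2f2 encodes (COUP-TFII), which keeps Notch signalling and the arterial programme low. EphB4, a receptor tyrosine kinase, sits on veins and meets its ligand ephrin-B2 on arteries. Venules are also where leukocytes leave the blood, and von Willebrand factor (Vwf) and the chemokine-binding receptor Ackr1 belong to that venular equipment. Slc6a2 encodes the noradrenaline transporter, with which pulmonary endothelium clears noradrenaline from the blood. Bst1 (CD157) is a surface enzyme that acts on NAD and is also made by myeloid cells.

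On the mouse assembly mm10, which corresponds to GRCm38, GENCODE M21 annotates all 6 as protein-coding genes. Nr2f2 occupies 70351944 to 70366735 of chromosome 7 (minus strand) and Ephb4 occupies 137350109 to 137378669 of chromosome 5 (plus strand). Vwf spans 125546774 to 125686679 on the plus strand of chromosome 6, and Ackr1 spans 173331886 to 173333750 on the minus strand of chromosome 1. Slc6a2 is found on chromosome 8 from 92960079 to 93001667 and Bst1 on chromosome 5 from 43818885 to 43843986, both on the plus strand. Exons of 4 members overlap those of a neighbour: Nr2f2 with B130024G19Rik on the other strand over 643 bases, Bst1 with Fbxl5 on the other strand over 98 bases, Ephb4 with Zan on the other strand over 33 bases, and Ackr1 with Cadm3 on the same strand over 284 bases. How the authors' counting treated such overlaps, and whether it used strand, is not given in the sources used here, so reads in these stretches are uncertain.

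Promoters of 3 of the 6 members were matched in RefSeq on GRCm38.p6, and all 3 are shown. None was available for Vwf, Slc6a2 and Bst1. The group means of Darc spanned the widest ratio of the 6 genes and those of Ephb4 the narrowest, with Nr2f2 between. Each window runs 5′ to 3′ on the gene's own strand, from 250 bases before the transcription start to 50 bases that begin with it. The start is that of the promoter source. For Ackr1 nearly the whole window lies inside the span that GENCODE M21 gives, which reaches 173333750. The start used for Ackr1 is thus not the outermost annotated one. Capitals mark matches, on either strand, to 6 short motifs. These were AGATAA for GATA factors, AGGTCA for the half-site of nuclear receptors, AGGAAG for ETS factors, TTCNNNGAA for STAT factors, CACGTG for the E-box and TGANTCA for AP-1.
Ackr1, chr1:173333454-173333753, minus strand: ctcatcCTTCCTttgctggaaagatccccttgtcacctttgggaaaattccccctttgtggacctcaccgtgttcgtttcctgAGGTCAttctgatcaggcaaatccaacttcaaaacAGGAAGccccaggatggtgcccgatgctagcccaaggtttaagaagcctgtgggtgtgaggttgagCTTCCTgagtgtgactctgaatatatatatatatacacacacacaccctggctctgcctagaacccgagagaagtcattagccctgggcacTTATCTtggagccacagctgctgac
Nr2f2, chr7:70366697-70366996, minus strand: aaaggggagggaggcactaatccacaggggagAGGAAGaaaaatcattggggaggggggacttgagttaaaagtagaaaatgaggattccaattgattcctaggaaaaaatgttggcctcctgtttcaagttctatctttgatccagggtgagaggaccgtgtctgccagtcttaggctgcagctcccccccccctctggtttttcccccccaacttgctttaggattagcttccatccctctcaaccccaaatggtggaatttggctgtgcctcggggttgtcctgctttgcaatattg
Ephb4, chr5:137349859-137350158, plus strand: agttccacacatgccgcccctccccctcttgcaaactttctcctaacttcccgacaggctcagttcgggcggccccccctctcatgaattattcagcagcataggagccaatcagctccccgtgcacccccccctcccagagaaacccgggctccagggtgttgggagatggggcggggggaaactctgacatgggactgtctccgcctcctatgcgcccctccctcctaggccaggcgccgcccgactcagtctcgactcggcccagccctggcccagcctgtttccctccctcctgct
The Ackr1 promoter held 1 GATA match, 1 nuclear receptor half-site and 3 ETS matches. The Nr2f2 promoter held 1 ETS match, and the Ephb4 promoter held none of the 6 motifs. No 2 of these matches overlapped. Of 32851 mouse promoters of the same length, 35.35% held the ETS letters, 16.26% the nuclear receptor half-site and 11.18% the GATA letters. The STAT letters were in 8.298% of them, the AP-1 letters in 7.808% and the E-box in 7.15%. These matches describe the letters of the windows, and no binding was measured.

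Levels are given as RPKM, reads per kilobase of transcript and per M (mega) of reads, which corrects for transcript length and depth, so genes can be compared with each other. Depth, estimated from the steps of the deposited values, was about 93.4 to 152.1 M reads a library. For 3 members the deposited values came out as whole reads within 0.1 read in all 16 libraries: 16 to 948 reads for Darc, 228 to 1690 for Nr2f2 and 752 to 3453 for Bst1. Fold changes are differences of log2(RPKM + 1) from one limma fit of the 4 groups, given with the SE and the p-value adjusted by Benjamini-Hochberg over the 14303 entries that reached 1 RPKM in at least 4 of the 16 libraries. All 6 members passed this filter, Darc only through the d15, d22 and d36 libraries. An adjusted p under 0.05 counts as a call.

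The pan-endothelial markers Pecam1, Cdh5 and 13 others, 15 of 15 of which had an entry, summed to between 7908 and 12608 RPKM in every library, as the cell type label states. Of these 15 markers, 0 rose and 0 fell at d15 (4 with an unadjusted p under 0.05 in limma), 1 rose and 2 fell at d22 (median log2 fold change -0.17), and 1 rose and 5 fell at d36 (median -0.39), with the receptor kinase Tie1 at -0.69 (adjusted p = 0.000603). Libraries of a group correlated with r of at least 0.98 at d0, 0.979 at d15 and 0.978 at d22 across genes, and of 0.92 to 0.984 at d36. At d36, replicate 9 had the lowest limma array weight of the 16 libraries (0.221), and the title of replicate 1 names day 29 although its time point field reads d36. Results with d36 are therefore given without these libraries as well. Since the samples are bulk RNA, fewer or more venous cells in a sort cannot be told apart from less or more of a transcript per cell.

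The mean of 5 of the 6 genes was higher at each later time point than at d0, and that of Ephb4 was lowest at d36. The highest mean was at d15 for Vwf, Darc and Ephb4 and at d22 for Nr2f2, Slc6a2 and Bst1, although no member was called between d22 and d15.

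**Figure D1:**
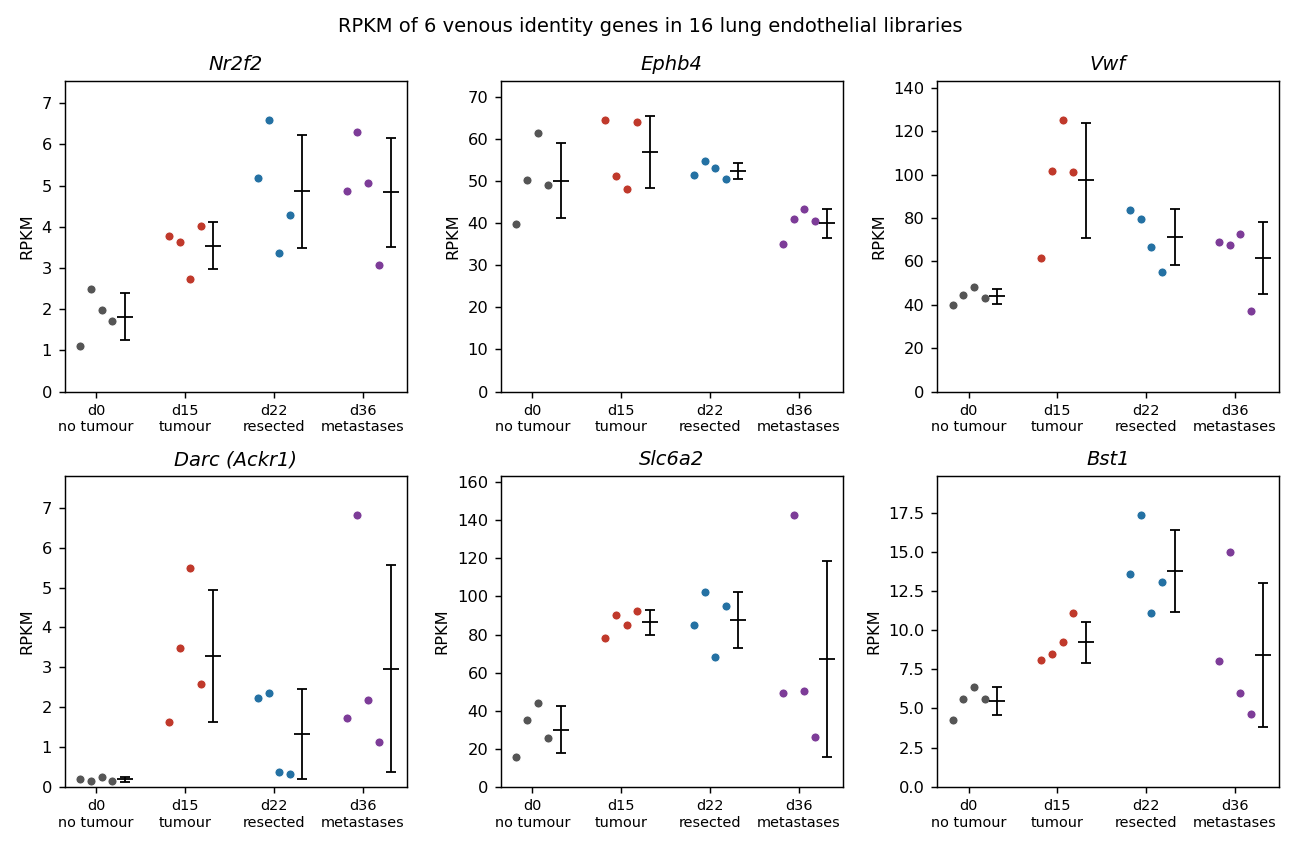
RPKM (linear axes from 0) of each gene in each library, 1 point a library, by time point, with the mean ± SD of 4 libraries in black beside the points. The 4 d0 libraries of Darc lie at or below 0.253 RPKM and all other libraries above them, the 4 d36 libraries of Ephb4 lie below all d15 and d22 libraries, and d36 replicate 7 stands high for Slc6a2 (142.8 RPKM), Darc (6.82 RPKM) and Bst1 (15.02 RPKM).

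Nr2f2 was the lowest of the 6 after Darc at d0, and its mean was higher at each later time point than at d0. The d0 libraries held 1.11, 2.49, 1.97 and 1.72 RPKM and the d15 libraries 3.79, 3.62, 2.74 and 4.03 RPKM. In the d22 libraries it was 5.18, 6.60, 3.36 and 4.30 RPKM, in the d36 libraries 4.88, 6.31, 5.07 and 3.08 RPKM. All 12 libraries of tumour-bearing, resected and metastasis-bearing mice lay above all 4 d0 libraries, while the d15, d22 and d36 ranges overlapped each other. The means were 1.82 ± 0.575 at d0, 3.55 ± 0.562 at d15, 4.86 ± 1.38 at d22 and 4.84 ± 1.33 RPKM at d36 (SD, n = 4 each), so d22 and d36 do not differ beyond their spread.

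Ephb4 had the highest d0 mean of the 6, and its highest group mean was 1.42 times its lowest, the narrowest ratio among them. The d0 libraries had 39.7, 50.2, 61.4 and 49.0 RPKM, the d15 libraries 64.5, 51.1, 48.1 and 63.9 RPKM, the d22 libraries 51.4, 54.8, 53.1 and 50.4 RPKM and the d36 libraries 35.1, 41.1, 43.3 and 40.5 RPKM. The d36 libraries lay below every d15 and every d22 library, and only d0 replicate 1 reached into their range. The means were 50.1 ± 8.89 at d0, 56.9 ± 8.54 at d15, 52.5 ± 1.93 at d22 and 39.97 ± 3.49 RPKM at d36 (SD, n = 4 each), so the order from the top was d15, d22, d0 and d36, and the first 3 of these differed by less than their spread.

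Vwf, the carrier of coagulation factor VIII that endothelium stores in Weibel-Palade bodies, had 39.9, 44.6, 48.2 and 43.4 RPKM at d0, a narrow range. The d15 libraries had 61.5, 101.7, 125.3 and 101.3 RPKM, the d22 libraries 83.5, 79.4, 66.8 and 55.0 RPKM, and the d36 libraries 69.0, 67.7, 72.6 and 37.2 RPKM. No d15 or d22 library overlapped d0. At d36, replicate 9 lay below all d0 libraries and the other 3 lay above them. The means were 44.0 ± 3.43 at d0, 97.5 ± 26.5 at d15, 71.2 ± 12.9 at d22 and 61.6 ± 16.4 RPKM at d36 (SD, n = 4 each). From the top the order was d15, d22, d36 and d0, and neighbours among the first 3 overlapped.

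Darc, whose product binds inflammatory chemokines without signalling through G proteins, was nearly silent at d0, with 0.206, 0.134, 0.253 and 0.137 RPKM, or 22, 16, 32 and 16 reads. The d15 libraries reached 1.62, 3.47, 5.51 and 2.58 RPKM, the d22 libraries 2.24, 2.36, 0.381 and 0.331 RPKM and the d36 libraries 1.74, 6.82, 2.18 and 1.12 RPKM. The d22 libraries split, replicates 1 and 4 near the d15 values and replicates 5 and 6 close to d0, though still above it. The means were 0.182 ± 0.0576 at d0, 3.29 ± 1.66 at d15, 1.33 ± 1.12 at d22 and 2.97 ± 2.61 RPKM at d36 (SD, n = 4 each). From the top the order was d15, d36, d22 and d0, and of these 4 groups d0 alone overlapped with none of the others.

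Slc6a2 stood at 15.5, 34.9, 44.0 and 25.9 RPKM in the d0 libraries, 78.0, 90.4, 84.8 and 92.4 RPKM in the d15 libraries, 84.9, 102.2, 68.3 and 94.9 RPKM in the d22 libraries and 49.1, 142.8, 50.2 and 26.2 RPKM in the d36 libraries. Every d15 and d22 library lay above every d0 library, and d36 reached from inside the d0 range to the highest Slc6a2 value of the 16 libraries. The means were 30.0 ± 12.2 at d0, 86.4 ± 6.45 at d15, 87.6 ± 14.7 at d22 and 67.1 ± 51.7 RPKM at d36 (SD, n = 4 each), with d15 and d22 indistinguishable. In none of the 4 d0 libraries was Slc6a2 above Ephb4 in RPKM, while it was in 4 of 4 at d15, 4 of 4 at d22 and 3 of 4 at d36.

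Bst1 had 4.24, 5.64, 6.40 and 5.58 RPKM at d0 and 8.11, 8.47, 9.26 and 11.07 RPKM at d15. It reached 13.6, 17.4, 11.1 and 13.1 RPKM at d22 and measured 8.03, 15.02, 6.00 and 4.67 RPKM at d36. The d0, d15 and d22 groups did not overlap each other, while of the d36 libraries replicates 8 and 9 lay in the d0 range, replicate 7 in the d22 range and replicate 1 between d0 and d15. Its means were 5.46 ± 0.896 at d0, 9.23 ± 1.32 at d15, 13.8 ± 2.61 at d22 and 8.43 ± 4.60 RPKM at d36 (SD, n = 4 each).

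**Figure D2:**
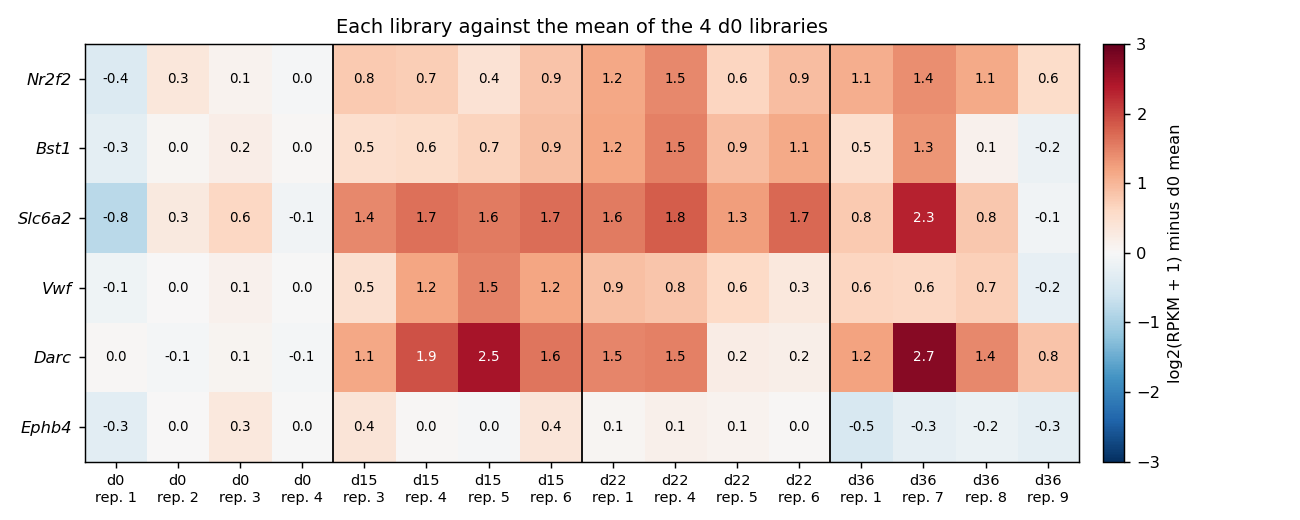
Difference of log2(RPKM + 1) of each library from the mean of the 4 d0 libraries, 1 column a library and 1 row a gene, red above and blue below that mean. Nr2f2 is above it in 12 of 12 later libraries, Darc is strongest in d15 replicate 5 and d36 replicate 7, and d36 replicate 9 is near or below d0 for Bst1, Slc6a2 and Vwf.

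The 3 comparisons against d0 share its 4 libraries. The first sets lung endothelium of mice with a primary tumour under the skin against that of mice without one. At d15 against d0, Vwf, Darc and Slc6a2 rose, and Nr2f2, Bst1 and Ephb4 did not pass the test. Mean Vwf was 97.5 RPKM at d15 and 44.0 RPKM at d0 (log2 fold change 1.09, SE 0.22, adjusted p = 0.0261). Mean Darc was 3.29 RPKM at d15 and 0.182 RPKM at d0, 18.1-fold higher as a ratio of means, and 1.78 on the log2(RPKM + 1) scale, which understates it (SE 0.38, adjusted p = 0.0324). For Slc6a2 the means were 86.4 RPKM at d15 and 30.0 RPKM at d0 (log2 fold change 1.58, SE 0.37, adjusted p = 0.0458). These were 3 of 6 members called higher, beside 0.608% of all tested entries called higher at d15. The count includes Darc, which entered the test only through libraries after d0. Without the filter its limma adjusted p was 0.0489, beside 0.368% of all entries called higher.

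Nr2f2 and Bst1 did not overlap d0 at d15 either, with log2 fold changes of 0.70 (SE 0.20, adjusted p = 0.0836) and 0.66 (SE 0.23, adjusted p = 0.166). That made 5 of 6 members with every d15 library above every d0 library, beside 5.34% of all entries. Ephb4 overlapped d0 (0.19, SE 0.13, adjusted p = 0.514). Leaving out 1 library at a time ended all 3 calls in 7 of 8 fits, and without d15 replicate 3 only Vwf and Darc were called (adjusted p = 0.0101 and 0.0402). The share of all entries called higher fell as well, to between 0.0979% and 0.287% in these 8 fits, from 0.608% with all libraries. Scaling to the pan-endothelial markers also ended the calls of Darc (1.75, adjusted p = 0.0566) and Slc6a2 (1.61, adjusted p = 0.0711), as did testing without the filter for Slc6a2 (adjusted p = 0.0661) and removal of a length and GC trend for Vwf (0.96, adjusted p = 0.0507). With 1 library left out, the log2 fold change of Vwf ranged from 0.95 to 1.29 and that of Slc6a2 from 1.31 to 1.79.

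**Figure D3:**
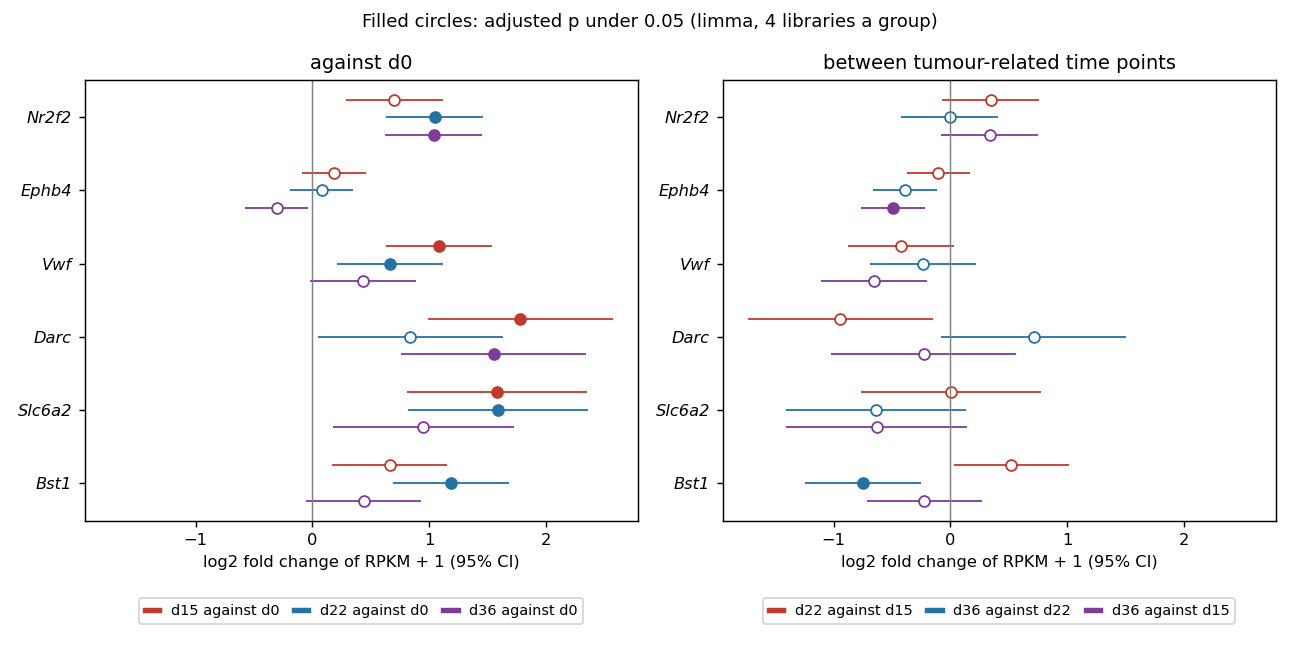
Log2 fold change of RPKM + 1 with its 95% confidence interval for each gene, on the left against d0 and on the right between the later time points, filled where the adjusted p is under 0.05. Against d0, filled circles number 3 at d15, 4 at d22 and 2 at d36, and Ephb4 and Bst1 carry the 2 filled circles on the right.

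After resection, at d22, Nr2f2, Bst1, Slc6a2 and Vwf rose against d0. Nr2f2 averaged 4.86 RPKM at d22 and 1.82 RPKM at d0 (log2 fold change 1.05, SE 0.20, adjusted p = 0.00296). Bst1 averaged 13.8 RPKM at d22 and 5.46 RPKM at d0 (1.19, SE 0.23, adjusted p = 0.00378). Slc6a2 was 2.91-fold higher as a ratio of means (1.59, SE 0.37, adjusted p = 0.00908). Vwf was 1.62-fold higher (0.67, SE 0.22, adjusted p = 0.0463). The 4 of 6 members called compare with 8.09% of all entries called higher at d22.

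Darc had a log2 fold change of 0.84 at d22 (SE 0.38, adjusted p = 0.143), and Ephb4 one of 0.08 (SE 0.13, adjusted p = 0.716). The value of Darc depended on the pseudocount: with 0.1 in place of 1 it was 1.91 at d22 and called (adjusted p = 0.036), and it was 3.48 at d15 and 3.14 at d36. It was also called at d22 with array weights (0.97, adjusted p = 0.0183) and in a fit of these 2 groups alone (adjusted p = 0.0487). With Darc, 5 of 6 members showed no overlap with d0 at d22, beside 14.2% of all entries. For Darc this separation rested on 46 and 41 reads in d22 replicates 5 and 6 against 32 reads in d0 replicate 3, whose 95% Poisson intervals (33.7 to 61.4, 29.4 to 55.6 and 21.9 to 45.2 reads) overlap. Nr2f2, Bst1 and Slc6a2 were called in 8 of 8 fits that left out 1 library, and Vwf in 1 of 8, the fit without d22 replicate 6 (adjusted p = 0.0451); in the other 7 its adjusted p was between 0.0712 and 0.121. The call of Vwf was also lost without the filter (adjusted p = 0.0602), under median-ratio scaling (0.64, adjusted p = 0.0602) and after removal of the length and GC trend (0.47, adjusted p = 0.233).

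In mice with metastases, at d36, Nr2f2 and Darc rose against d0. Nr2f2 averaged 4.84 RPKM at d36 and 1.82 RPKM at d0 (log2 fold change 1.04, SE 0.20, adjusted p = 0.0015). Darc averaged 2.97 RPKM at d36 and 0.182 RPKM at d0, 16.3-fold higher as a ratio of means (1.55, SE 0.38, adjusted p = 0.00741). Without d36 replicate 7 the d36 mean of Darc was 1.68 RPKM and the ratio 9.23 (log2 fold change 1.16, adjusted p = 0.0204). These 2 of 6 compare with 16.6% of all entries called higher at d36, and they were also the 2 members with no overlap with d0, beside 13.9% of all entries. Here too Darc entered the test only through libraries after d0. Without the filter its limma adjusted p was 0.00957, beside 17.7% of all entries called higher.

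The other 4 did not pass the test at d36: the log2 fold change of Slc6a2 was 0.95 (SE 0.37, adjusted p = 0.0685), that of Bst1 0.44 (SE 0.23, adjusted p = 0.184), that of Vwf 0.43 (SE 0.22, adjusted p = 0.157) and that of Ephb4 -0.31 (SE 0.13, adjusted p = 0.0943). Ephb4 was called lower than d0 under quantile normalization (-0.36, adjusted p = 0.0396), median-ratio scaling (-0.37, adjusted p = 0.0454) and array weights (-0.33, adjusted p = 0.0389), and without d0 replicate 1 (-0.41, adjusted p = 0.0323), whereas scaling to the pan-endothelial markers gave -0.044 (adjusted p = 0.808). That scaling called Slc6a2 (1.21, adjusted p = 0.0262) and Vwf (0.70, adjusted p = 0.0367) higher, as did array weights (0.79, adjusted p = 0.0251, and 0.61, adjusted p = 0.00778). Without replicate 1, the library titled day 29, Nr2f2 (1.03, adjusted p = 0.00528) and Darc (1.67, adjusted p = 0.0122) were called. Without replicate 7, the same 2 were called, and the log2 fold change was 0.50 for Slc6a2 (adjusted p = 0.218) and 0.15 for Bst1 (adjusted p = 0.596). Without replicate 9, 5 of 6 members were called higher, beside 21.8% of all entries in that fit: Nr2f2 (1.20, adjusted p = 0.000127), Darc (1.79, adjusted p = 0.00172), Slc6a2 (1.30, adjusted p = 0.00575), Vwf (0.66, adjusted p = 0.012) and Bst1 (0.65, adjusted p = 0.0284). Within d36, replicate 7 was highest for 4 of the 6 genes and replicate 9 lowest for 5, the exception being Ephb4, lowest in replicate 1.

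Between d22 and d15 no member was called, beside 3.06% of all entries called in either direction by limma. An unadjusted p under 0.05 was found for 2 of 6 members, Bst1 and Darc, beside 20.3% of all entries. The exact permutation test, which with 4 libraries a group passes only where the groups do not overlap, passed 1 of 6, Bst1. Bst1 was the one whose libraries did not overlap, with 13.8 RPKM at d22 and 9.23 RPKM at d15 (log2 fold change 0.52, SE 0.23, unadjusted p = 0.039, adjusted p = 0.217). The separation was narrow, 11.10 RPKM in d22 replicate 5 against 11.07 RPKM in d15 replicate 6. The same separation, with all d22 libraries higher, was found for 10.2% of all entries. Darc averaged 1.33 RPKM at d22 and 3.29 RPKM at d15 (-0.94, SE 0.38, unadjusted p = 0.0226, adjusted p = 0.165).

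Between d36 and d22, Bst1 fell, to 8.43 RPKM at d36 against 13.8 RPKM at d22 (log2 fold change -0.75, SE 0.23, adjusted p = 0.0468), beside 3.07% of all entries called lower. Its d36 libraries overlapped d22 through replicate 7. The call was lost in 7 of 8 fits with a library left out, among them those without d36 replicate 1 (-0.77, adjusted p = 0.0771) and without replicate 9 (-0.54, adjusted p = 0.0742), and it held without replicate 7 (-1.04, adjusted p = 0.00315). It was also lost under scaling to the pan-endothelial markers (-0.62, adjusted p = 0.111), in a fit of these 2 groups alone (adjusted p = 0.149) and in the exact permutation test (p = 0.114). Ephb4 had no overlap between d36 and d22, with all d36 libraries lower as for 4.11% of all entries, and its log2 fold change was -0.39 (SE 0.13, adjusted p = 0.059). Ephb4 was called there under quantile normalization (-0.58, adjusted p = 0.00681), median-ratio scaling (-0.43, adjusted p = 0.0413) and array weights (-0.35, adjusted p = 0.0347). Without d36 replicate 7, Slc6a2 was called lower as well, at -1.09 against d22 (adjusted p = 0.0266) and -1.08 against d15 (adjusted p = 0.0217).

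Between d36 and d15, Ephb4 fell, to 39.97 RPKM at d36 against 56.9 RPKM at d15 (log2 fold change -0.49, SE 0.13, adjusted p = 0.0209), beside 1.64% of all entries called lower. All 4 d36 libraries lay below all 4 d15 libraries, as for 2.31% of all entries. The call held in 5 of 8 fits with a library left out and was lost without d15 replicate 3 (adjusted p = 0.0574), without d15 replicate 6 (0.0715) and without d36 replicate 1 (0.0736). Scaling to the pan-endothelial markers brought the value to -0.26 (adjusted p = 0.124), and the call was also lost in a fit of these 2 groups alone (adjusted p = 0.0858) and after removal of the length and GC trend (-0.41, adjusted p = 0.0537). For Vwf, d36 against d15 was -0.66 on the log2 scale (SE 0.22, adjusted p = 0.0595).

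The authors' deposited table lists fold changes for d15, d22 and d36 without naming the group they were taken against. For the members other than Darc, they differed from log2 ratios of mean RPKM to d0 by at most 0.0455 at d15, 0.0932 at d22 and 0.128 at d36. For Darc the differences were -0.377, -0.545 and -0.296. In the authors' deposited table, 5 of the 6 members had an adjusted p under 0.05 at d15 and 5 at d22, Ephb4 being the exception, and 2 at d36, Nr2f2 and Darc. Those counts stand beside 7.89%, 25.6% and 22.2% of all entries with a p-value in the authors' deposited table at d15, d22 and d36. For Darc the authors' deposited table gives log2 fold changes of 3.80 at d15, 2.32 at d22 and 3.73 at d36. For Nr2f2 the authors' deposited table gives 0.97, 1.38 and 1.36 at these time points.

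The way the 6 genes moved across libraries was compared by Pearson's r of log2(RPKM + 1) over the 12 libraries of d0, d15 and d22, a description without a test, since these libraries share their groups. The closest pairs were Vwf with Darc (r = 0.95) and Nr2f2 with Bst1 (r = 0.94). Slc6a2 correlated with Nr2f2 at 0.89, with Bst1 at 0.88, with Vwf at 0.79 and with Darc at 0.69. Nr2f2 and Darc had r of 0.54, and Ephb4 had r of 0.55 or less with each of the others. Over all 16 libraries r was 0.76 for Nr2f2 and Bst1 and 0.77 for Vwf and Darc.

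Among 8998 candidate genes, those most like each member over the 12 libraries were then named. For Nr2f2 they were Ctsh (a lysosomal protease, r = 0.98), Tmem45a (0.97), Gpr126 (an adhesion receptor, 0.96) and Gata6 (a GATA transcription factor, 0.95), with r over 16 libraries of 0.74, 0.86, 0.89 and 0.95. Selp, the P-selectin of Weibel-Palade bodies, stood among the 4 nearest of both Vwf (0.95, and 0.72 over 16) and Darc (0.95, and 0.93 over 16). Il33, an alarmin cytokine, was also near both (0.93 for Vwf and 0.97 for Darc, and 0.62 and 0.74 over 16). The remaining neighbours were Ch25h (0.93) and Myof (0.93) for Vwf, and Atf3 (0.96) and Zfp36 (0.94), both stress-response genes, for Darc.

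Bst1 ran with Tnfaip8 (0.96), Vcam1 (0.96), Prss23 (0.96) and Ctsh (0.95), and of these Prss23 had an r of 0.96 over 16 libraries too. Slc6a2 ran with Fgl2 (0.95), Crebrf (0.94), 5830408B19Rik (0.93) and Tnks (0.93). The nearest of Ephb4 were Fxyd5 (0.84), Arl4d (0.81), Tal1 (0.81), a haematopoietic and endothelial transcription factor, and Rps6 (0.79), all lower than for the other members. Selp itself measured 3.43, 6.06, 9.22 and 6.68 RPKM at d15 and 1.36, 2.23, 1.66 and 1.87 RPKM at d0, the d15 libraries all above d0 and in the same order as for Darc except for replicates 4 and 6.

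Other genes of veins and venules were taken from a list of 17, of which 15 were tested. Of these, 1 rose at d15, Ptgs1 (cyclooxygenase-1; log2 fold change 0.78, adjusted p = 0.0395), and the median of the list was 0.56, against -0.02 over all tested entries. At d22, 7 of 15 rose and none fell (median 0.73, against 0.02 over all entries), among them the leukocyte adhesion molecule Vcam1 (1.67, adjusted p = 0.00526), Gpr126 (1.10, adjusted p = 0.00459), the protease Prss23 (0.96, adjusted p = 0.0173) and the lymphangiogenic growth factor Vegfc (0.96, adjusted p = 0.0199). At d36, 7 rose and 1 fell (median 0.72, against 0.04 over all entries), led by Vcam1 (1.75, adjusted p = 0.00209), Selp (1.54, adjusted p = 0.00608) and the interleukin-1 receptor Il1r1 (0.94, adjusted p = 0.000321), with the apelin receptor Aplnr lower (-0.92, adjusted p = 0.03). Of all tested entries, 0.608%, 8.09% and 16.6% were called higher at d15, d22 and d36, and 7.37% lower at d36.

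On the opposite, arterial side, genes of arteries and the Notch pathway changed in few cases. Of 19 tested, 1 fell at d15, the netrin receptor Unc5b (-0.65, adjusted p = 0.0106). At d22 the Notch ligand Jag1 rose (0.70, adjusted p = 0.0265), while Unc5b (-0.46, adjusted p = 0.00888) and Dll4, another Notch ligand (-0.38, adjusted p = 0.0467), fell. At d36 Hes1, a Notch target, and the co-receptor Nrp1 rose (0.65 and 0.54, adjusted p = 0.0473 and 0.0432) and the BMP receptor Acvrl1 fell (-0.37, adjusted p = 0.0487). Of all tested entries, 0.573%, 7.10% and 7.37% were called lower at d15, d22 and d36, and 8.09% and 16.6% higher at d22 and d36. The list medians were 0.24 at d15, 0.28 at d22 and 0.16 at d36. The EphB4 ligand Efnb2 and its relative Efnb1, the 2 of 7 ephrin-B and EphB genes tested, passed the test at no time point against d0. Nr2f6, the other nuclear receptor of the Nr2f family tested, had a log2 fold change of -0.13 at d15 (adjusted p = 0.75), -0.16 at d22 (0.559) and 0.09 at d36 (0.713).

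**Figure D4:**
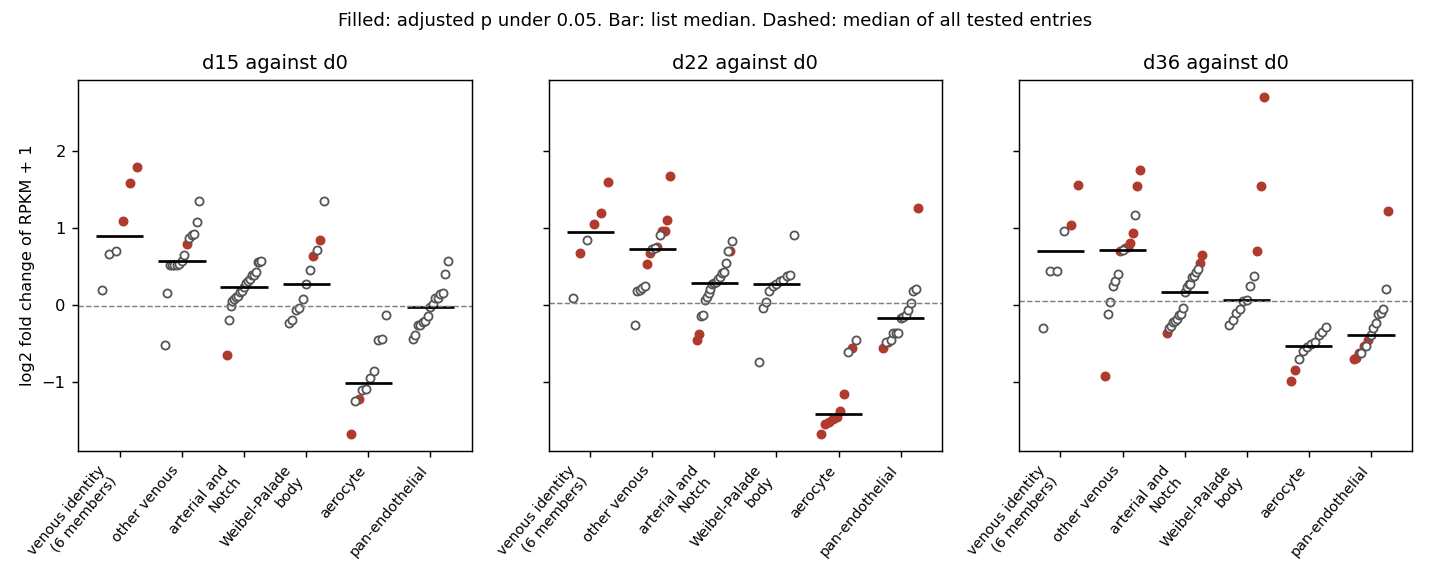
Log2 fold change of RPKM + 1 against d0 for each tested gene of 6 lists at d15, d22 and d36, filled where the adjusted p is under 0.05, with a bar at the list median and a dashed line at the median of all tested entries. The 2 venous lists sit above the dashed line at all 3 time points (medians of 0.90, 0.94 and 0.70 for the 6 genes) and the aerocyte list below it (-1.02, -1.41 and -0.53).

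The partners of each member's product were examined by role. Of 11 genes of Weibel-Palade bodies and Vwf handling, Myrip, which tethers these organelles to actin (0.84, adjusted p = 0.026), and Edn1, which encodes endothelin-1 (0.63, adjusted p = 0.0332), rose at d15. At d36 Cd63 (2.70, adjusted p = 0.000464), Selp (1.54, adjusted p = 0.00608) and the integrin subunit Itgb3 (0.70, adjusted p = 0.00942) rose. Of 8 chemokines that Ackr1 binds, 7 had an entry and 4 passed the filter on low values, Cxcl2, Ccl2 and Ccl7 through their d36 libraries, so the number called at d36 says little and is not given. Cxcl1 had 6.79 to 406.5 RPKM at d36 and 0.1005 to 0.765 RPKM at d0, Ccl2 5.87 to 230.04 RPKM at d36 and 0 to 0.403 RPKM at d0. At d15, when Darc had its highest mean, the largest value of any of the 7 in any library was 1.91 RPKM. Of the other atypical chemokine receptors, relatives of Ackr1, 3 were tested (Ackr2, Ackr3 and Ccrl2) and passed the test at no time point against d0.

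Of 5 NAD-handling genes Nampt, the salvage enzyme, rose at d22 (0.74, adjusted p = 0.00304) and at d36 (0.74, adjusted p = 0.00143), and of 4 monoamine genes the vesicular transporter Slc18a2 rose at d36 (0.51, adjusted p = 0.0112). Among aerocyte genes, which mark the large gas-exchange capillary cell, 2 of 10 fell at d15, 8 of 10 at d22 and 2 of 10 at d36. Of all tested entries, 0.573%, 7.10% and 7.37% were called lower at these times. Apln, an aerocyte gene for a peptide ligand, had log2 fold changes of -1.67, -1.54 and -0.99. General capillary genes rose in 1 of 9 cases at d15 (0.608% of all entries) and 2 of 9 at d22 (8.09%), and 2 of 9 fell at d36 (7.37%). The rise at d15 is that of Edn1, given above for Weibel-Palade bodies. One of the falls at d36 is that of Aplnr, given above for the venous list.

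Of the 6 transcripts, 4 are also made by cells outside the endothelium, and the markers of those cells were read beside them. Red cell precursors can express Darc, and 5 of 14 erythroid markers had an entry, summing to 3.72 to 5.79 RPKM at d0, 11.7 to 40.5 RPKM at d15, 3.55 to 17.7 RPKM at d22 and 7.23 to 26.1 RPKM at d36. The haemoglobin gene Hba-a1 rose at d15 (2.06, adjusted p = 0.0387). None of these 5 markers was at 0 in all libraries.

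Platelets carry Vwf, and 3 of 9 platelet markers had an entry. They summed to 0.326 to 0.676 RPKM at d0, 0.496 to 1.80 RPKM at d15, 0.224 to 1.06 RPKM at d22 and 1.01 to 11.5 RPKM at d36. Of these markers 1 passed the filter, the platelet chemokine Pf4. It could do so only with the help of its d36 libraries, so its test at d36 says little and is not given. Myeloid cells make Bst1, and 11 of 14 myeloid markers summed to 26.0 to 44.6 RPKM at d0, 48.1 to 134.7 RPKM at d15, 17.97 to 61.0 RPKM at d22 and 51.8 to 152.4 RPKM at d36, most of it Lyz2 at d0, d15 and d22. Mpo and Elane, of neutrophil granules, were at 0 in all 4 d15 libraries. Of the 4 myeloid markers tested, 3 rose at d36, beside 16.6% of all entries called higher. Sympathetic nerve fibres carry Slc6a2, and 3 of 10 of their markers summed to 116.8 to 170.6 RPKM at d0, 77.6 to 155.7 RPKM at d15, 133.9 to 141.0 RPKM at d22 and 69.3 to 137.5 RPKM at d36, most of it Stmn2. The mean log2(RPKM + 1) of the 3 markers, in which Stmn2 weighs less, was 2.56 to 2.78 at d0. It was 3.83 and 3.59 in d36 replicates 7 and 8, and 2.72 and 2.77 in replicates 1 and 9. Of the 2 tested, 1 rose at d36, Slc18a2, given above for monoamine genes. The wall of mouse pulmonary veins holds a sleeve of heart muscle, and of 6 tested markers of it 1 fell at d15, the atrial light chain Myl7 (-2.10, adjusted p = 0.0458), and 2 fell at d22 and at d36, Myl7 and Sln. The shares of all entries called lower were 0.573% at d15, 7.10% at d22 and 7.37% at d36. Of 4 pan-leukocyte markers tested, 3 rose at d36, among them Coro1a (2.28, adjusted p = 0.00165), again beside 16.6% of all entries.

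Lymphatic endothelium also depends on Nr2f2, and 4 of 9 lymphatic markers had an entry. They summed to 98.1 to 136.3 RPKM at d0, 164.2 to 263.8 RPKM at d15, 141.6 to 211.5 RPKM at d22 and 128.8 to 442 RPKM at d36, most of it Lyve1, a hyaluronan receptor. The highest sum was in d36 replicate 7, the library in which Slc6a2, Darc and Bst1 stood high as well. Fgl2 was the 1 of the 4 to pass the test, higher at d15 (1.11, adjusted p = 0.0261), d22 (1.15, adjusted p = 0.00321) and d36 (0.69, adjusted p = 0.0312). Fibroblast and mural markers, of which 9 of 13 had an entry, summed to 11.6 to 17.4 RPKM at d0, 9.80 to 21.6 RPKM at d15, 15.5 to 34.1 RPKM at d22 and 13.5 to 59.9 RPKM at d36, where Lum rose (2.74, adjusted p = 0.00168). Epithelial markers, 10 of 11 with an entry, summed to 807 to 1991 RPKM at d0, 1282 to 3437 RPKM at d15, 1140 to 1632 RPKM at d22 and 477 to 1152 RPKM at d36. Of the 9 tested, Hopx fell at d15 (-0.80, adjusted p = 0.0472), d22 (-0.88, adjusted p = 0.00605) and d36 (-0.54, adjusted p = 0.0471), and the keratins Krt8 (3.75, adjusted p = 0.000348) and Krt18 (3.98, adjusted p = 0.00014) rose at d36. The part of all these other cells in the values of the 6 genes was not tested.

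**Figure D5:**
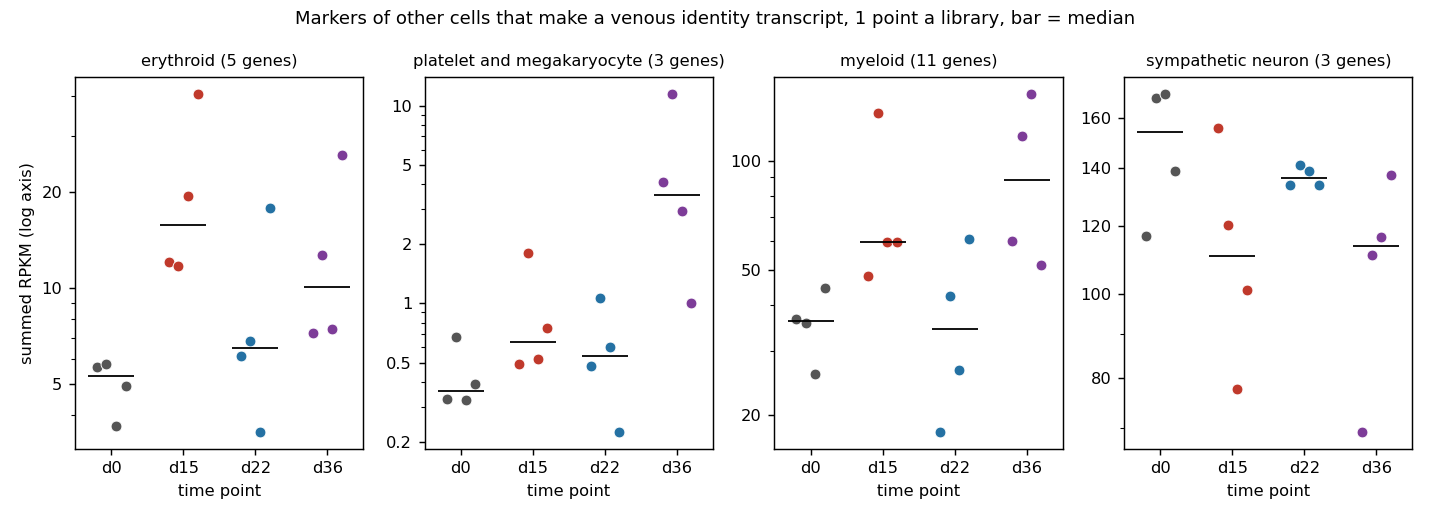
Summed RPKM (log axes) of the markers of erythroid, platelet, myeloid and sympathetic cells in each library by time point, with a bar at the group median. Erythroid and myeloid sums at d15 lie above all d0 libraries, and platelet sums are highest at d36 (up to 11.5 RPKM). Sympathetic sums, mostly Stmn2, reach below those at d0 at both d15 and d36.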

How the data were processed

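RNA of sorted lung endothelial cells was measured by sequencing in 16 libraries, made per the labels with the PicoPure and SMARTer Ultra Low kits. The table that the authors deposited gives every entry an RPKM value in each library. Per the file headers it also carries the authors' log2 fold changes and adjusted p-values, with no comparison group named. The submitters' processing notes name STAR, DESeq2 and mm10 without versions or roles. The sources used here do not state the annotation, the transcript lengths or a filter.

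RPKM values were analysed as log2(RPKM + 1). One limma fit (version 3.58.1, R 4.3.3) with an intensity trend covered the 4 groups with no covariate, and all 6 contrasts of time points got two-sided tests over the 14303 entries that reached 1 RPKM in 4 or more libraries, with Benjamini-Hochberg adjustment within a contrast at 0.05. The spread is shared by the groups, and libraries differed more at d36. The fit was also run on simulated data in which each gene had the same spread in all groups. That run therefore says nothing about the wider spread at d36. Groups were taken from the time point labels. Whether replicates came from separate mice is stated only by the series design. Library pairs with identical values numbered 0.

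The 6 members, the gene lists and the rules for naming genes were chosen with earlier results of these data known. Of each other list, up to 4 genes that passed the test with the largest log2 fold change against d0 were named. Some genes stand in more than 1 list (Selp, Edn1, Aplnr, Tek, Kdr, Efnb2 and Slc18a2), so results of these lists are not separate. The nearest genes of a member were the 4 with a symbol, a group mean of at least 2 RPKM and the highest r over 12 libraries. Depth was estimated from the steps of low RPKM values: 367 of 4296 low entries gave whole reads in all 16 libraries, which leaves read numbers for most entries unknown, and no count test was run. Its precision limits low values such as those of Darc. Gene positions came from GENCODE M21, and promoter sequences from RefSeq on GRCm38.p6.

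Alternatives were another pseudocount, no filter, 3 other scalings, array weights, a constant prior variance, a replicate block, fits of 2 groups, an exact permutation test, each library left out and, chosen after seeing the data, removal of a length and GC trend.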

Additional observations from a re-analysis of the deposited data

Results flagged for a closer look

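Vwf in d36 replicate 9, at 37.2 RPKM, stood apart from the other 3 d36 libraries (67.7 to 72.6 RPKM), with a gap to the nearest of 0.86 of the group's range, above Dixon's 95% critical value. Of 24 groups of 4 libraries tested this was 1, and chance gives about 1 in 20.

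The changes of Bst1 from d0 at d36 and at d22 differed, by -0.75 on the log2 scale (SE 0.23, adjusted p = 0.0468), with 8.43 RPKM at d36 and 13.8 RPKM at d22. It was lower in 3 of 4 d36 libraries than in every d22 library. The changes of Ephb4 from d0 at d36 and at d15 differed by -0.49 (SE 0.13, adjusted p = 0.0209), with 39.97 RPKM at d36 and 56.9 RPKM at d15, and it was lower in 4 of 4 d36 libraries than in every d15 library.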

How the results depend on the processing

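Of the recomputed log2 fold changes of single members, 576 kept direction and side of the threshold, 57 lost the call, 33 gained one and 18 reversed. The number of members called was 3, 4, 2, 0, 1 and 1 for d15 against d0, d22 against d0, d36 against d0, d22 against d15, d36 against d22 and d36 against d15. It stayed within 1.5 times in 77 recomputations and moved further in 37. Quantile normalization gave 2 for d36 against d22. Median-ratio scaling gave 2 for d36 against d22 and 2 for d36 against d15. Scaling to the pan-endothelial list, which moves the median of all entries to 0.12 at d22 and 0.24 at d36 against d0, gave 1 at d15 and 4 at d36 against d0, 0 for d36 against d22 and 0 for d36 against d15. Array weights gave 5 for d36 against d0, 4 higher and Ephb4 lower, beside 39.8% of all entries called in either direction, and 2 for d36 against d22, beside 28.1%. At d36 against d0 the share of all entries called higher and lower was 16.6% and 7.37%, against 11.98% and 13.8% under quantile normalization, 14.5% and 10.9% under median-ratio scaling and 32.1% and 1.64% under pan-endothelial scaling. Fits of 2 groups gave 5 at d15, 1 for d22 against d15, 0 for d36 against d22 and 0 for d36 against d15. Beside these counts, 3.34%, 5.54%, 2.91% and 2.80% of all entries were called in either direction in those fits. The main fit called 1.18%, 3.06%, 11.8% and 11.5% of all entries in the same contrasts. Removing the length and GC trend, chosen after seeing the data, gave 0 for d36 against d15. The exact permutation test, unadjusted and with 0.0286 as the smallest p it can give, passed 5 at d15 and 1 for d22 against d15. With 1 library left out, the number ranged from 0 to 2 at d15, 2 to 5 at d36 against d0, 0 to 2 for d36 against d22 and 0 to 2 for d36 against d15. The cause of these shifts was not tested.

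Same-numbered libraries correlated with r of -0.11 to 0.22 in their deviations from the group means. Differently numbered libraries were not set beside them, so this range does not settle whether the numbers pair the samples. With the replicate number as a block, the contrasts with d36 rested on d36 replicate 1 alone, the library titled day 29. The other d36 libraries carry numbers that no other group has, so the block absorbed them. The log2 fold change of Darc at d36 against d0 was 0.92 in that fit, and calls from it are not given.

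Reversals were of small changes with no call. For Ephb4, d22 against d15 was 0.031 under quantile normalization and 0.015 with the block. For Slc6a2, d22 against d15 was -0.044 under median-ratio scaling, -0.017 with array weights and -0.055 without the length and GC trend. For Nr2f2, d36 against d22 was 0.11 under pan-endothelial scaling, 0.048 with array weights and 0.040 with the block. For Bst1, d36 against d15 was 0.0075 with the block. With 1 library left out, Ephb4 at d22 against d0 ranged from -0.022 to 0.18, Slc6a2 for d22 against d15 from -0.072 to 0.12, Nr2f2 for d36 against d22 from -0.14 to 0.16 and Darc for d36 against d15 from -0.62 to 0.0078.

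With 4 libraries a group, the 95% intervals of the log2 fold changes span about 0.27 to either side for Ephb4 and 0.79 for Darc. Larger differences could still miss a call after adjustment. Ephb4 at -0.39 for d36 against d22 (limma adjusted p = 0.059) and Darc at -0.94 for d22 against d15 (limma adjusted p = 0.165) are examples.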
